A study of Mus musculus with 8 samples.

Results

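Solute carriers are membrane proteins that move nutrients, ions, metals and metabolites across the plasma membrane and the membranes of organelles. In macrophages they set the supply of amino acids, sugars and nucleosides, the pH and volume of the cell, the metals held in vesicles and the traffic of metabolites into mitochondria. The genes described here are all rows of the deposited tables whose symbol follows the solute carrier pattern (Slc, a family number, the letter a and a member number) and whose mean was at least 2 CPM over all libraries, where CPM is the count of a gene after every library is brought to the same total. The solute carriers Slc2a1, Slc16a3, Slc7a2, Slc7a11, Slc13a3, Slc40a1, Slc11a1 and Slc11a2 were left out by name. Of 299 rows with such a symbol among 17364 in all, 291 remained after these 8 were left out, and 158 of them reached 2 CPM. The genes were thus chosen by their mean CPM over both genotypes, so the levels are given as a description. The rule does not use the comparison of genotypes, but it was set with earlier results of these data known. The results do not cover the 8 genes left out.

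The libraries came from bone-marrow-derived macrophages, macrophages grown out of mouse bone marrow cells, of wild-type mice and of mice with the Sept2C111A allele. Sept2 encodes septin 2, a GTP-binding protein of the cytoskeleton, and the allele name stands for a change from cysteine to alanine in it. Each genotype had 4 libraries, and cultures of both genotypes had received TNF-α, an inflammatory cytokine, at 30 ng/ml for 24 h. The comparison therefore describes the genotypes in the treated state only. The labels give neither the age and sex of the mice nor whether the libraries of a genotype came from separate mice or cultures, so p-values measure the spread between these libraries, which may be technical.

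Totals ran from 19543958 to 21288493 expected counts per library. Septin2, the row of Sept2, measured 228, 226, 216 and 234 CPM in wild-type and 187, 195, 207 and 163 CPM in Sept2C111A libraries 1 to 4. Its means were 226 ± 7.43 and 188 ± 18.7 CPM (mean ± SD of 4 libraries, as in all values with ±), and the gene was not called (log2 fold change -0.27 with SE 0.076 and adjusted p = 0.063). Counts per gene cannot show the changed codon. The macrophage markers Adgre1, Csf1r, Cd68, Itgam, Fcgr1, Mertk and Lyz2 were all above 0. They summed to 21123 to 22872 CPM in wild-type and 19193 to 20920 CPM in Sept2C111A libraries, most of it Lyz2. Of these 7, Fcgr1 was called higher in Sept2C111A libraries and the other 6 were not called. An unadjusted p under 0.05 was found for 6 of the 7, where 24.8% of all tested genes had one. The genotypes did not overlap for 3, Fcgr1 and Cd68 with higher and Lyz2 with lower values in Sept2C111A. Over all tested genes 16.9% did not overlap. Markers of other cells were present as well: 11 stromal markers summed to 6292 to 7899 CPM in wild-type and 4409 to 6295 CPM in Sept2C111A libraries. All 11 had a negative log2 fold change (Sept2C111A over wild type), as did 6002 of all 12462 tested genes. Of the 11, 3 were called lower, namely Col1a1, Col5a2 and Postn. The 4 smooth muscle markers, of which 3 were tested, summed to 1135 to 1516 CPM in wild-type and 669.5 to 1028 CPM in Sept2C111A libraries. Acta2 and Tagln were called lower among them. Over all tested genes, 3.03% were called lower. None of these 15 stromal and smooth muscle markers was at 0 in every library, but their levels differed widely. Lum lay at 0.356 to 0.804 CPM, Myh11, which was not tested, at 0.141 to 0.907 CPM and Pdgfra at 2.54 to 5.77 CPM. Col1a1 lay at 1379 to 2264 CPM. Each of these 5 calls was lost when some single libraries were removed (named here by genotype and number): Col1a1 on removal of wild-type 1, 3 or 4 or of Sept2C111A 2 or 3 (adjusted p from 0.071 up to 0.15), Col5a2 on removal of any wild-type library or of Sept2C111A 2 or 3 (adjusted p from 0.052 up to 0.15), Postn on removal of wild-type 1, 3 or 4 or of Sept2C111A 2 (adjusted p from 0.056 up to 0.069), Acta2 on removal of wild-type 1 or 3 (adjusted p from 0.068 up to 0.074) and Tagln on removal of wild-type 1, 3 or 4 (adjusted p from 0.058 up to 0.084). Libraries were made from whole cultures, in which fewer cells of a type and less RNA per cell cannot be told apart, and the part of stromal cells in the transporter results below was not tested. The B cell markers Cd79a and Ms4a1, the neutrophil markers Ly6g, Mpo and Elane, Ccr7 of dendritic cells and Cd3d of T cells were each below 0.15 CPM in each library. Summed T cell markers, nearly all of it Cd4, lay at 14.7 to 15.8 CPM in wild-type and 18.6 to 23.6 CPM in Sept2C111A libraries, where Cd4 was called higher. The sums were at most 22.5 CPM for osteoclast, 5.63 CPM for endothelial, 5.30 CPM for neutrophil, 4.02 CPM for erythroid and 3.45 CPM for dendritic markers; among these Pecam1 was called higher, a call lost on removal of any wild-type library or of Sept2C111A 1, 2 or 3 (adjusted p from 0.057 up to 0.14), with DESeq2 and with no filter on low counts. The spread of counts between libraries, as a biological coefficient of variation, came to 0.061 for wild type and 0.147 for Sept2C111A, and counts over genes placed Sept2C111A libraries 2 and 3 farthest from the wild-type libraries, with a mean chi-square per gene of 37.2 to 85.7 against 14.6 to 36.1 for libraries 1 and 4 and 3.87 to 9.73 between wild-type libraries. Results are therefore also given without libraries 2 and 3 where a call changes. These were picked by their distance from wild type, so a call lost without them may follow from that choice and from fewer libraries. Within the Sept2C111A genotype, libraries 3 and 4 lay farthest apart, with a mean chi-square per gene of 63.3. Col1a1, Col5a2 and Pecam1 were not called without libraries 2 and 3.

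The 158 transporter genes held 1.10%, 1.12%, 1.09% and 1.09% of all counts in wild-type libraries 1 to 4 and 1.05%, 1.03%, 0.975% and 1.10% in Sept2C111A libraries 1 to 4. Sept2C111A library 3 was lowest, and Sept2C111A library 4 lay within the wild-type range. Their mean levels ran from 2.01 to 1025 CPM with a median of 27.1 CPM. Of them, 25 reached 100 CPM and 36 lay under 10 CPM. At the threshold, Slc16a9, Slc27a3 and Slc1a1 lay just inside, at 2.01, 2.06 and 2.24 CPM. Slc4a4, Slc2a10 and Slc18a2 lay just outside, at 1.96, 1.92 and 1.85 CPM. All 158 genes passed the filter on low counts, and of the 133 rows below the threshold 21 did, edgeR and DESeq2 calling 0 and limma voom 1 of them, Slc17a8. An unadjusted p under 0.05 was found for 2, Slc14a1 and Slc17a8, named after their values were seen.

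Per length of transcript, which allows genes to be compared with each other, the heme transporter gene Slc48a1 stood first, at 418 ± 23.5 and 390.5 ± 21.9 CPM per kilobase in wild-type and Sept2C111A libraries. Its product moves heme out of the phagolysosome, a step in the recycling of red cells by macrophages. Slc25a3, the mitochondrial phosphate carrier, followed with 237 ± 6.74 and 271 ± 39.3 CPM per kilobase. Slc15a3, a peptide and histidine transporter of lysosomes, came next with 239 ± 7.76 and 256 ± 14.6 CPM per kilobase. The order of the latter pair did not differ beyond their spread, and Slc15a3 had the higher mean in wild-type and Slc25a3 in Sept2C111A libraries. Slc3a2, the heavy chain shared by several amino acid exchangers, measured 196 ± 9.72 and 208 ± 21.7 CPM per kilobase, and Slc25a5, an ADP/ATP exchanger of mitochondria, 162 ± 3.45 and 158 ± 6.90 CPM per kilobase. Slc25a10, Slc39a1, Slc31a2 and Slc25a39 lay between 109.7 and 121 CPM per kilobase in wild-type libraries, neighbours whose SDs overlapped in part. They encode a dicarboxylate carrier, a zinc importer, a copper transporter of vesicles and a carrier needed for mitochondrial glutathione.

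**Figure D1:**
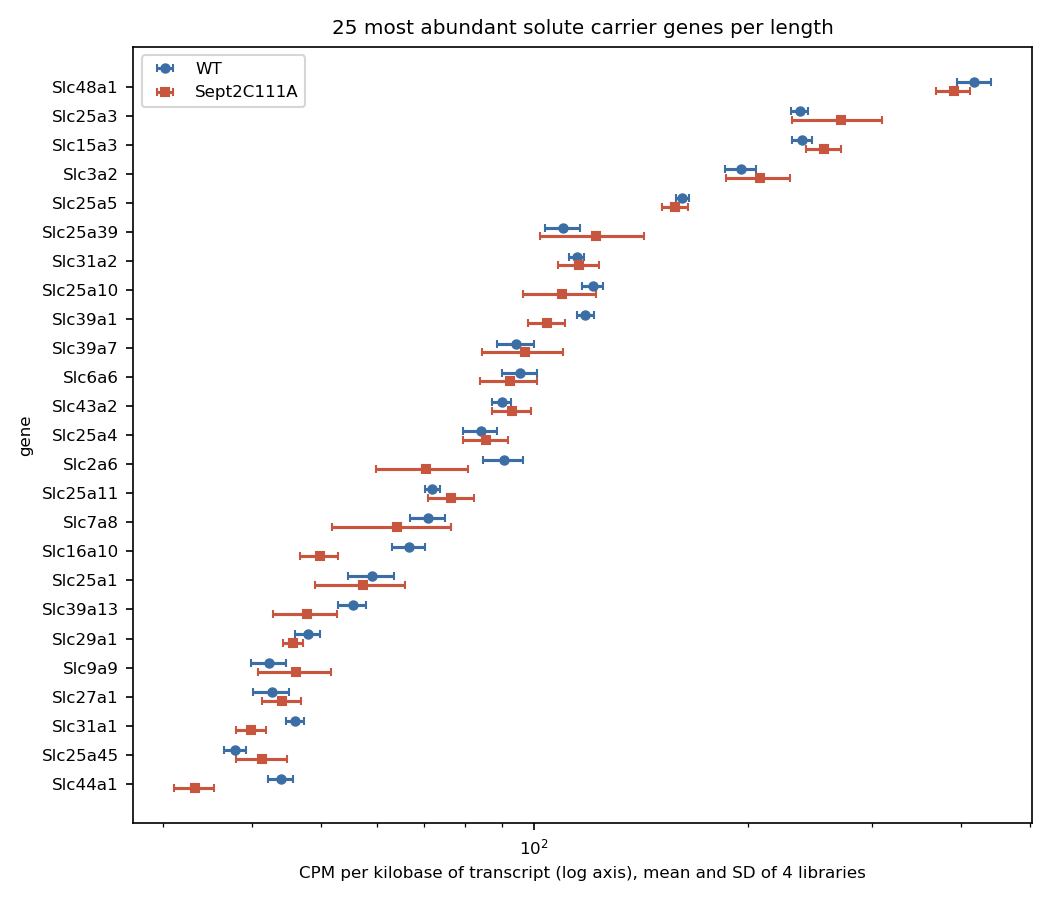
CPM per kilobase of transcript (horizontal log axis) for the 25 solute carrier genes with the highest level per length, as mean and SD of 4 libraries for wild type (circles) and Sept2C111A (squares). Slc48a1 lies highest in both genotypes, and the error bars of the genotypes overlap for most genes, while those of Slc16a10, Slc44a1, Slc39a1, Slc39a13, Slc31a1 and Slc2a6 do not.

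With the genotypes compared, 12 of the 158 transporter genes were called, 5 higher and 7 lower in Sept2C111A libraries. This share of 7.59% lay near that of all genes, since edgeR called 6.46% of 12462 tested genes, 3.43% higher and 3.03% lower. The transporters lower in Sept2C111A libraries were Slc25a25, Slc44a1, Slc16a10, Slc12a4, Slc39a14, Slc41a2 and Slc4a2. Those higher were Slc46a3, Slc37a2, Slc26a11, Slc16a6 and Slc2a9. No class supplied more than 2 of them, and the 2 calls within a class had the same direction in each of the 3 classes that held 2. The changes were small: the log2 fold changes of all 158 ran from -0.62 to 0.59, none reaching 2-fold, and their median was 0.00 beside 0.01 over all tested genes. The genotypes did not overlap for 30 of the 158, 13 with higher and 17 with lower values, a share of 19.0% where 16.9% of all tested genes did not. An unadjusted p under 0.05 was found for 42, or 26.6%, against 24.8% of all tested genes. Of the 146 genes not called, the 95% interval of the log2 fold change lay within -0.5 to 0.5 for 118.

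The number of called transporters depended on single libraries, as did that of all genes. With wild-type library 1, 2, 3 or 4 left out it came to 3, 7, 3 and 7, and with Sept2C111A library 1, 2, 3 or 4 left out to 14, 8, 12 and 30. Without Sept2C111A library 4, 11 were higher and 19 lower, a share of 19.0% beside 16.5% of all tested genes. Without wild-type library 1 or 3, no transporter was called higher, and the 3 called lower were in both cases Slc25a25, Slc44a1 and Slc16a10. Those 3 genes were called in all 16 alternative fits other than the change of threshold or of the level required of a member, and also at an adjusted p under 0.01. Without Sept2C111A libraries 2 and 3 together, 8 transporters were called, 7 of them among the 12 with the same sign and the other being Slc2a6. Several genes given below as not called passed in other fits. Among them, Slc4a7, Slc2a8, Slc50a1, Slc31a1 and Slc44a2 were called with DESeq2, with limma voom and without Sept2C111A library 4. Slc24a3 and Slc25a17 were called with DESeq2 and without Sept2C111A library 1 or 4. Upper-quartile normalization also gave calls for Slc24a3 and Slc31a1.

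**Figure D2:**
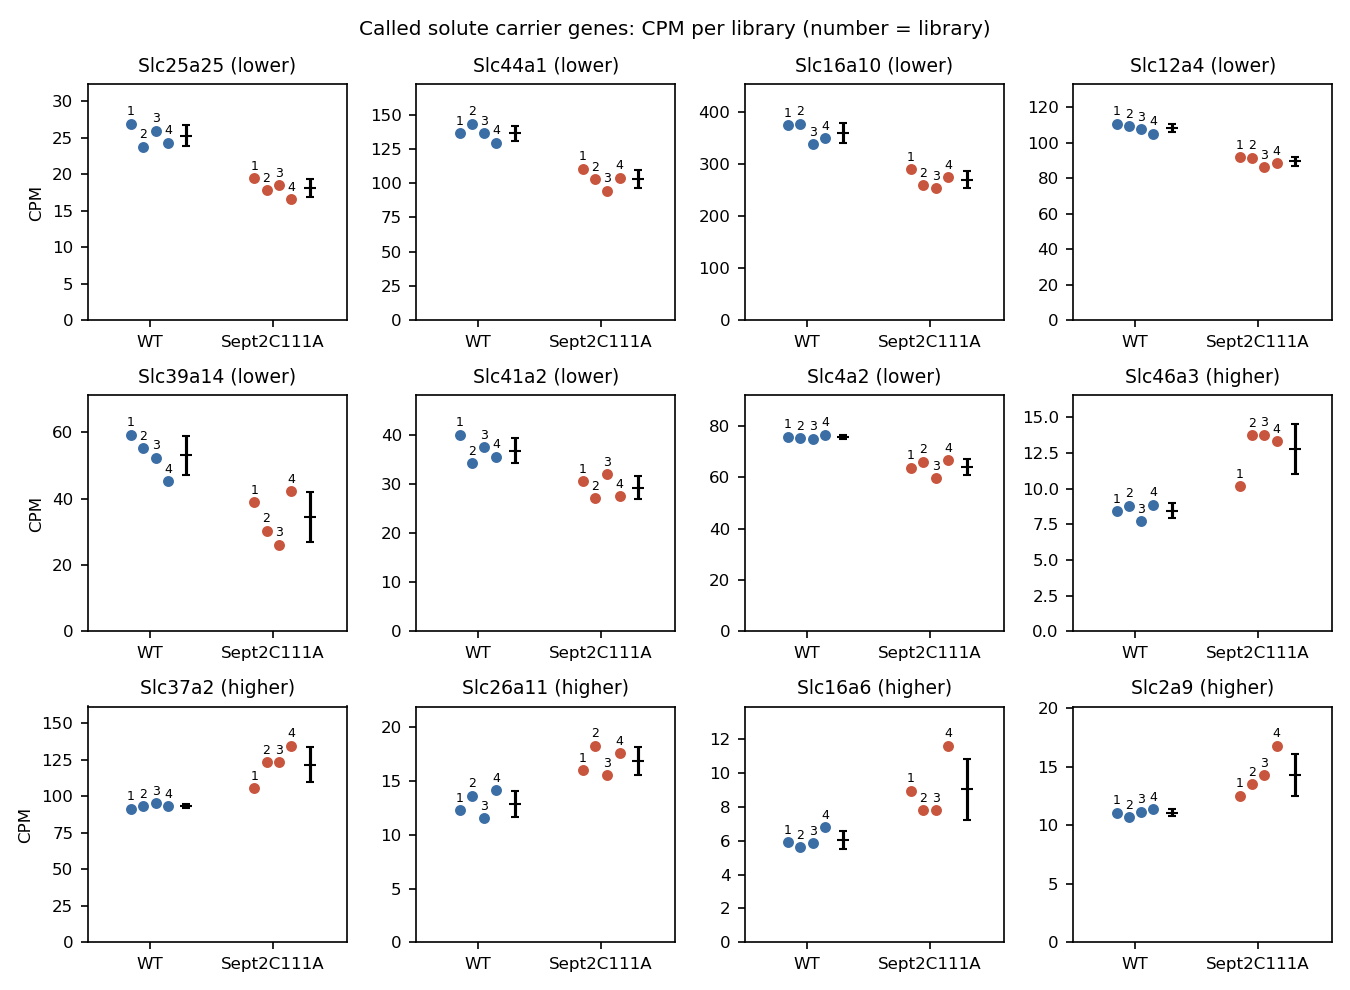
CPM of the 12 called transporter genes in each library (vertical axis from 0, points numbered by library), with mean and SD of 4 libraries beside them, for wild type (blue) and Sept2C111A (red). In each panel all 4 Sept2C111A libraries lie on one side of all 4 wild-type libraries; Slc39a14 and Slc16a6 show the widest spread among Sept2C111A libraries.

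The promoter windows of the 2 genes with the smallest adjusted p in each direction are shown, from 250 bases before to 50 bases after the first transcription start listed in RefSeq (GRCm38.p6, the assembly of mm10), 5′ to 3′ on the strand of the gene. Capitals mark the letters TGCNCNC on either strand, where N is any base. This pattern is looser than the core of the metal response element, so a match need not be such an element. The Slc25a25 window lies at chr2:32451421-32451720 on the minus strand, that of Slc44a1 at chr4:53440163-53440462 on the plus strand, that of Slc46a3 at chr5:147894766-147895065 on the minus strand and that of Slc37a2 at chr9:37255689-37255988 on the minus strand.
Slc25a25: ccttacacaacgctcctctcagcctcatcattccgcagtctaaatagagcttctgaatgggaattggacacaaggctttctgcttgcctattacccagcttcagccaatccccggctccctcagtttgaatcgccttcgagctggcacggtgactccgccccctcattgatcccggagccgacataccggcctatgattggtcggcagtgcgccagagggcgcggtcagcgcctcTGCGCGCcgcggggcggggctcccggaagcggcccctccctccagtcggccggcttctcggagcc
Slc44a1: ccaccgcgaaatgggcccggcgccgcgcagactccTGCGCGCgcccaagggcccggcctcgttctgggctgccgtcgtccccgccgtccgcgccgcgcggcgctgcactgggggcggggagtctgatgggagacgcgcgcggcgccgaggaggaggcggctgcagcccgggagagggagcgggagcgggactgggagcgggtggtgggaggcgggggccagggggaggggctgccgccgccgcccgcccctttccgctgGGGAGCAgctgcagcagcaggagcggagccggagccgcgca
Slc46a3: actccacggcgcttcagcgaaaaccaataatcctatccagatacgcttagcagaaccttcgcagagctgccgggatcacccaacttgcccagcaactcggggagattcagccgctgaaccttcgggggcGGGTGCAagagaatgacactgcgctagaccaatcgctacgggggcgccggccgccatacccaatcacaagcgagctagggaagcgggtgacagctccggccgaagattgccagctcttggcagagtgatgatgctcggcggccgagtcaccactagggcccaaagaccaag
Slc37a2: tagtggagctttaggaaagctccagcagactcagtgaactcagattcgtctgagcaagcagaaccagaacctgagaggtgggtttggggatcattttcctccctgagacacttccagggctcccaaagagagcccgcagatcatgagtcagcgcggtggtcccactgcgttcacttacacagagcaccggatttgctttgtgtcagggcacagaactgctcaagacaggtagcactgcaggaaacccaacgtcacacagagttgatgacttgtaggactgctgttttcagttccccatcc
The windows differ in base composition. That of Slc44a1 has a G+C content of 79.7% and 43 CpG dinucleotides, and that of Slc37a2 52.7% and 7. Windows were found for 121 of the 158 transporters, with a median of 21 CpG dinucleotides against 7 over all 27025 genes with windows, and a median G+C content of 63.0% against 52.7%. The transporters had to reach 2 CPM here and the 27025 genes did not, and expressed genes alone were not compared. The shares of windows given next carry the same limit. TATAAA, the core of the TATA box, on either strand was found in 4 of the 121, or 3.31%, and in 14.2% of all windows. TGATGNAA, the letters of the amino acid response element, was found in 5 of the 121, or 4.13%, against 4.06% of all, and in 2 of 17 windows of amino acid transporters. TGCNCNC was found in 10 of 14 windows of zinc and manganese transporters, or 71.4%, in 67 of all 121, or 55.4%, and in 50.4% of all windows. By call, 5 of 6 windows of genes called lower and 1 of 3 of genes called higher held it. None of the 4 windows shown holds TATAAA or TGATGNAA. Such matches are letters in a window and no measured sites.

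Amino acid transporters formed the second largest class, with 20 genes, of which 1 was called, Slc16a10. Slc16a10 (chromosome 10, 40033532 to 40142270, mm10, as for all coordinates) encodes a transporter of aromatic amino acids that works without a sodium gradient. Its level was 374, 377, 337 and 349 CPM in wild-type libraries 1 to 4 and 289.7, 259.7, 253 and 275 CPM in Sept2C111A libraries 1 to 4. The groups did not overlap, and the lowest wild-type library stood above the highest Sept2C111A library. Slc16a10 fell from a mean of 359 ± 19.4 to one of 269 ± 16.5 CPM (log2 fold change -0.42 with SE 0.067 and adjusted p = 0.0055). Over the class the median log2 fold change was -0.07, with 9 genes above and 11 below 0. Slc43a2, a facilitator for large neutral amino acids and the gene of the class with the highest read count, measured 621 ± 19.1 and 642 ± 41.4 CPM and was not called (log2 fold change 0.05, 95% interval -0.10 to 0.19). Slc3a2 and the light chain genes Slc7a8, Slc7a7 and Slc7a6 did not pass the test. Slc3a2 had a log2 fold change of 0.09, Slc7a8 of -0.15, Slc7a7 of -0.08 and Slc7a6 of -0.17. Slc7a11 was left out by name, so these values do not cover it. Slc7a5, the leucine exchanger, measured 17.5, 17.5, 22.9 and 19.6 CPM in wild-type and 14.9, 15.2, 9.36 and 19.6 CPM in Sept2C111A libraries. Sept2C111A library 4 lay inside its wild-type range and library 3 far below it, and the gene was not called (log2 fold change -0.39, 95% interval -0.79 to 0.01). Slc1a1, a glutamate transporter gene, had one of the largest changes among the uncalled genes (log2 fold change -0.51, 95% interval -1.03 to 0.01), at 2.10, 2.71, 3.07 and 2.58 CPM and 1.89, 1.43, 1.27 and 2.70 CPM. The glutamine transporter genes Slc1a5, Slc38a1 and Slc38a2 had log2 fold changes of 0.07, 0.02 and -0.07, and none passed. Slc38a9 and Slc66a1, transporters of the lysosomal membrane for arginine and other amino acids, had 0.17 and 0.26, also short of the threshold. The other genes of the class, Slc38a7, Slc38a6, Slc36a1, Slc36a4, Slc7a1, Slc1a4 and Slc6a9, had log2 fold changes between -0.25 and 0.26.

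Mitochondrial carriers, the family that links the cytosol with the mitochondrial matrix, gave 35 genes and 1 call. Slc25a25 (chromosome 2, 32414487 to 32451470) encodes a calcium-regulated carrier that exchanges ATP-magnesium for phosphate and so adjusts the pool of adenine nucleotides. It measured 26.9, 23.8, 26.0 and 24.3 CPM in wild-type and 19.4, 17.9, 18.5 and 16.6 CPM in Sept2C111A libraries, with no overlap. Slc25a25 fell from a mean of 25.3 ± 1.44 to one of 18.1 ± 1.19 CPM (log2 fold change -0.48 with SE 0.076 and adjusted p = 0.0051). Its paralogs Slc25a24 and Slc25a23, carriers of the same exchange, were not called (log2 fold change 0.05, 95% interval -0.11 to 0.21, and log2 fold change 0.05, 95% interval -0.11 to 0.22). The class had a median log2 fold change of 0.02, 19 genes above and 16 below 0, and 3 of 35 with an unadjusted p under 0.05. Slc25a3 measured 367, 355, 364 and 380.2 CPM in wild-type and 372, 437, 497 and 369 CPM in Sept2C111A libraries and was not called (log2 fold change 0.19, 95% interval -0.01 to 0.40). Its 2 highest values were those of Sept2C111A libraries 2 and 3, while libraries 1 and 4 lay in the wild-type range. The ADP/ATP exchanger genes Slc25a4 and Slc25a5 measured 162 ± 9.03 and 165 ± 12.0 CPM, and 201 ± 4.28 and 196 ± 8.55 CPM, with neither called. These exchangers are close copies, and reads shared between them may have been split by the counting model. Slc25a37 and Slc25a28, the iron importers of mitochondria, had log2 fold changes of -0.03 and 0.22, neither called. Slc25a1, the citrate exporter, measured 98.4 ± 7.39 and 95.7 ± 13.8 CPM (log2 fold change -0.04, 95% interval -0.26 to 0.18). The oxoglutarate carrier Slc25a11, the glutamate carrier Slc25a22, the aspartate and glutamate exchanger Slc25a12 and the carnitine carrier Slc25a20 lay between -0.08 and 0.09. Slc25a17, a carrier of peroxisomes, did not overlap between genotypes yet missed the threshold, at 35.0, 36.9, 35.4 and 33.5 CPM and 33.2, 27.3, 26.4 and 30.9 CPM (adjusted p = 0.084). Of the 34 uncalled carriers, the largest absolute log2 fold change was that of Slc25a35, at 0.30.

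Among 9 genes for sugars and sugar phosphates, 2 rose, Slc37a2 and Slc2a9. They made up 22.2% of this small class, where 6.46% of all tested genes were called. Slc37a2 (chromosome 9, 37229149 to 37255738) encodes an exchanger of glucose 6-phosphate and phosphate in the endoplasmic reticulum that is abundant in macrophages. Its level was 91.6, 93.1, 95.5 and 93.4 CPM in wild-type and 105, 124, 123 and 135 CPM in Sept2C111A libraries. All wild-type values lay close together and every Sept2C111A value lay above them. Slc37a2 rose from a mean of 93.4 ± 1.63 to one of 122 ± 12.1 CPM (log2 fold change 0.38 with SE 0.074 and adjusted p = 0.014), a call lost on removal of wild-type 1 or 3 (adjusted p from 0.053 up to 0.062). Slc2a9 (chromosome 5, 38349272 to 38503147), a transporter of urate related to the glucose transporters, measured 11.1, 10.7, 11.2 and 11.4 CPM and 12.5, 13.5, 14.3 and 16.8 CPM, and rose from a mean of 11.1 ± 0.287 to one of 14.3 ± 1.82 CPM (log2 fold change 0.37 with SE 0.098 and adjusted p = 0.049). It stood closest to the threshold of the 12: its call was lost on removal of any wild-type library or of Sept2C111A 2 or 3 (adjusted p from 0.066 up to 0.13). It was also lost with upper-quartile normalization, with no filter on low counts and with limma voom (adjusted p 0.053, 0.052 and 0.055), and without Sept2C111A libraries 2 and 3 together (0.084). The class median was 0.27, and 5 of the 9 genes, all with higher values in Sept2C111A, did not overlap between genotypes, where 16.9% of all tested genes did not: Slc37a2, Slc2a9, Slc50a1, Slc2a8 and Slc37a1. Slc50a1 and Slc2a8, transporter genes for glucose and related sugars, measured 34.7 ± 2.01 and 41.7 ± 3.12 CPM, and 15.6 ± 0.951 and 18.9 ± 1.47 CPM, with adjusted p of 0.056 and 0.070. Slc37a1 had the largest absolute log2 fold change of all uncalled transporters (log2 fold change 0.52, 95% interval 0.16 to 0.88), at 2.91, 2.24, 3.58 and 3.20 CPM and 3.74, 4.93, 4.22 and 4.21 CPM. Slc2a6, a hexose transporter of lysosomes and the gene of the class with the highest read count, had lower values in Sept2C111A: 187, 206, 179 and 203 CPM in wild-type and 151, 179, 146 and 125 CPM in Sept2C111A libraries. Its genotypes met at the edge, where Sept2C111A library 2 reached the lowest wild-type value, and the gene was not called (adjusted p = 0.054). It was called lower without Sept2C111A libraries 2 and 3 together (adjusted p 0.011), on removal of Sept2C111A 2 or of Sept2C111A 4 (0.024 and 0.043), and with upper-quartile normalization, DESeq2 and limma voom (0.046, 0.014 and 0.036). Slc37a4, Slc37a3 and Slc2a3 had log2 fold changes of -0.13, 0.06 and 0.23.

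Zinc is moved into the cytosol by the Slc39 family and out of it, or into vesicles, by the Slc30 family. These 2 families gave 17 genes, 11 of Slc39 and 6 of Slc30, of which 1 was called. Slc39a14 (chromosome 14, 70303467 to 70351452), an importer of zinc, manganese and iron that is known to be induced in inflammation, had the largest fall of all 158 transporters. It measured 59.2, 55.3, 52.3 and 45.2 CPM in wild-type and 38.9, 30.3, 26.1 and 42.3 CPM in Sept2C111A libraries. The highest Sept2C111A value, in library 4, lay just under the lowest wild-type value, and the lowest, in library 3, lay far below. Slc39a14 fell from a mean of 53.0 ± 5.93 to one of 34.4 ± 7.50 CPM (log2 fold change -0.62 with SE 0.14 and adjusted p = 0.029). Its call was lost on removal of wild-type 1, 2 or 3 or of Sept2C111A 2 (adjusted p from 0.069 up to 0.096), and without Sept2C111A libraries 2 and 3 together (adjusted p 0.063). Slc39a8, its closest relative, measured 5.96 ± 0.450 and 6.13 ± 0.928 CPM and was not called (log2 fold change 0.04, 95% interval -0.24 to 0.32). The median of the class was -0.10, with 7 genes above and 10 below 0, and 4 genes, all lower in Sept2C111A, did not overlap between genotypes: Slc39a14, Slc39a1, Slc39a13 and Slc30a4. They made up 23.5% of the class, near the 16.9% of all tested genes. Slc39a1, a zinc importer and the gene of the class with the highest read count, measured 269, 286, 278 and 284 CPM and 262, 233, 234 and 257 CPM (adjusted p = 0.10). Slc30a1, the zinc exporter of the plasma membrane, had log2 fold change -0.17, 95% interval -0.32 to -0.03. The vesicle and Golgi transporters Slc30a5, Slc30a6 and Slc30a7 lay between -0.04 and 0.05, and their importer counterparts Slc39a7, Slc39a9 and Slc39a11 between 0.04 and 0.09. None of these passed. Slc39a6, Slc39a10, Slc39a4, Slc39a3 and Slc30a9 completed the class, with -0.22, -0.15, -0.10, 0.11 and -0.11.

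**Figure D3:**
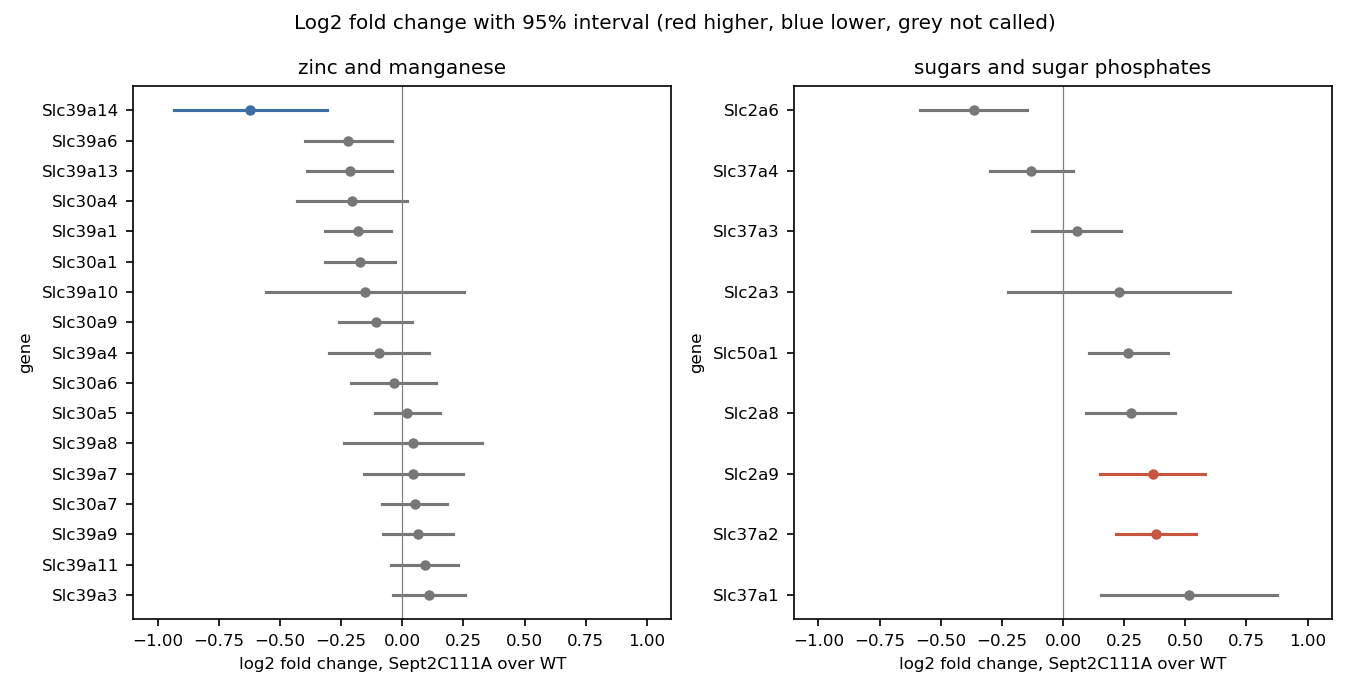
Log2 fold change (horizontal axis, Sept2C111A over wild type) with its 95% interval for the 17 zinc and manganese transporter genes and the 9 genes for sugars and sugar phosphates. Slc39a14 is the only zinc transporter gene called, at -0.62, and Slc37a2 and Slc2a9 are the called sugar transporter genes, at 0.38 and 0.37.

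Transporters of inorganic ions set pH and cell volume. Of 18 genes in this class, 2 were called, Slc12a4 and Slc4a2, both lower. They made up 11.1% of the class, where 6.46% of all tested genes were called. The genotypes did not overlap for 4 of the 18, or 22.2%, near the 16.9% of all tested genes. Slc12a4 (chromosome 8, 105943590 to 105966149), a potassium-chloride cotransporter active in volume control, measured 111, 109, 108 and 105 CPM in wild-type and 91.9, 91.5, 86.2 and 88.6 CPM in Sept2C111A libraries. Both groups were tight and stood apart. Slc12a4 fell from a mean of 108 ± 2.37 to one of 89.5 ± 2.71 CPM (log2 fold change -0.27 with SE 0.054 and adjusted p = 0.016), a call lost on removal of wild-type 1 or 3 (adjusted p from 0.069 up to 0.074). Slc4a2 (chromosome 5, 24423761 to 24440947), an exchanger of chloride for bicarbonate that acidifies the cytosol, measured 75.8, 75.3, 75.0 and 76.6 CPM and 63.8, 66.1, 59.6 and 66.6 CPM, again with no overlap. It fell from a mean of 75.7 ± 0.670 to one of 64.0 ± 3.18 CPM (log2 fold change -0.24 with SE 0.058 and adjusted p = 0.034). The call of Slc4a2 was lost on removal of any wild-type library or of Sept2C111A 1 or 2 (adjusted p from 0.059 up to 0.11), and also with no filter on low counts (adjusted p 0.052) and without Sept2C111A libraries 2 and 3 together (0.074). Slc4a7, a sodium-bicarbonate importer known in macrophages for phagosome acidification, did not overlap either, at 76.0, 81.3, 74.4 and 69.3 CPM and 62.2, 47.1, 47.7 and 68.7 CPM. Sept2C111A libraries 2 and 3 were much lower than libraries 1 and 4, and the gene was not called (log2 fold change -0.41, 95% interval -0.68 to -0.15, adjusted p = 0.064). Slc24a3, a sodium, calcium and potassium exchanger, came nearest of the uncalled genes in this class, at an adjusted p of 0.053 (4.75 ± 0.166 and 3.45 ± 0.419 CPM), and Slc24a5 had log2 fold change -0.47, 95% interval -0.88 to -0.07. The proton exchangers Slc9a5 to Slc9a9, most of them of endosomes and the Golgi, lay between -0.09 and 0.17, and none of these 5 was called. Slc9a9, which had the highest read count of the class, measured 134, 149.9, 153 and 149 CPM and 149.7, 153, 149.9 and 188 CPM. Its 2 ranges overlapped apart from the high value of Sept2C111A library 4. The cation-chloride cotransporters Slc12a7, Slc12a2 and Slc12a5 had log2 fold changes of -0.05, -0.13 and -0.37. Slc8a1, the sodium-calcium exchanger, had 0.22, Slc26a6 0.16 and Slc4a3 -0.03. The median of the class was -0.05.

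Copper, magnesium and heme transporters numbered 6, of which 1 fell. Slc41a2 (chromosome 10, 83230848 to 83338037), a magnesium transporter, measured 40.1, 34.3, 37.5 and 35.6 CPM in wild-type and 30.6, 27.1, 32.0 and 27.6 CPM in Sept2C111A libraries, without overlap. It fell from a mean of 36.9 ± 2.51 to one of 29.3 ± 2.34 CPM (log2 fold change -0.33 with SE 0.078 and adjusted p = 0.032), and the call was lost on removal of wild-type 1, 3 or 4 or of Sept2C111A 2 (adjusted p from 0.074 up to 0.11). Its relatives Slc41a1 and Slc41a3, the latter without overlap between genotypes, were not called (log2 fold change -0.12, 95% interval -0.35 to 0.10, and log2 fold change 0.16, 95% interval -0.02 to 0.33). Slc31a1, the copper importer of the plasma membrane, did not overlap between genotypes, at 173, 177, 167 and 167 CPM and 154, 147, 139 and 153 CPM, and missed the threshold (adjusted p = 0.062). The genotypes thus did not overlap for 3 of these 6 genes, 1 with higher and 2 with lower values. Over all tested genes the share was 16.9%. Slc31a2 of vesicles measured 209 ± 5.01 and 211 ± 14.3 CPM, and Slc48a1 1059 ± 59.5 and 990.2 ± 55.6 CPM; neither was called.

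Slc44a1 was the called gene among 5 for fatty acids and choline. Slc44a1 (chromosome 4, 53440387 to 53622478) encodes a choline transporter of the plasma membrane and mitochondria that supplies phospholipid synthesis. The gene measured 136, 143, 136 and 129 CPM in wild-type and 111, 103, 94.4 and 104 CPM in Sept2C111A libraries, with every Sept2C111A value below every wild-type value. Slc44a1 fell from a mean of 136 ± 5.63 to one of 103 ± 6.63 CPM (log2 fold change -0.40 with SE 0.065 and adjusted p = 0.0052). Slc44a2, a paralog with choline transport activity, had the opposite sign and did not pass the test, at 63.3, 60.3, 57.6 and 62.2 CPM and 67.3, 80.8, 71.6 and 71.2 CPM (log2 fold change 0.26, 95% interval 0.10 to 0.41, adjusted p = 0.053). Its genotypes did not overlap either, which made 2 of the 5 genes of the class, where 16.9% of all tested genes did not overlap. The fatty acid transport genes Slc27a1, Slc27a4 and Slc27a3 had log2 fold changes of 0.05, 0.01 and 0.02.

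In the class of phosphate and sulfate, 1 of 4 genes rose. Slc26a11 (chromosome 11, 119355509 to 119381076), a sulfate and anion transporter, measured 12.3, 13.6, 11.5 and 14.1 CPM in wild-type and 16.0, 18.2, 15.5 and 17.5 CPM in Sept2C111A libraries. The groups did not overlap, and it rose from a mean of 12.9 ± 1.21 to one of 16.8 ± 1.28 CPM (log2 fold change 0.38 with SE 0.092 and adjusted p = 0.034). The call was lost on removal of any wild-type library or of Sept2C111A 2 (adjusted p from 0.0504 up to 0.12), and without Sept2C111A libraries 2 and 3 together (adjusted p 0.068). The phosphate importers Slc20a1 and Slc20a2 measured 62.8 ± 3.45 and 58.7 ± 1.38 CPM, and 20.8 ± 2.14 and 15.9 ± 2.77 CPM, neither called. In other fits, Slc20a2 was called with DESeq2 and without Sept2C111A library 1. Slc26a2, the other sulfate transporter of the class, had the widest spread of all, 5.91, 8.44, 6.18 and 5.30 CPM in wild-type and 4.07, 4.98, 2.54 and 10.2 CPM in Sept2C111A libraries. Sept2C111A library 4 was its highest value and Sept2C111A library 3 its lowest.

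Of 14 genes whose substrate is unknown or disputed, 2 rose, or 14.3%, where 6.46% of all tested genes were called. Slc46a3 (chromosome 5, 147875897 to 147894861) encodes a lysosomal membrane transporter. Its level was 8.44, 8.82, 7.73 and 8.88 CPM in wild-type and 10.2, 13.8, 13.8 and 13.3 CPM in Sept2C111A libraries, of which libraries 2, 3 and 4 were close together and library 1 lower. Slc46a3 rose from a mean of 8.47 ± 0.525 to one of 12.8 ± 1.74 CPM (log2 fold change 0.59 with SE 0.11 and adjusted p = 0.013), the largest rise of the 158. The call was lost on removal of wild-type 1 or 3 (adjusted p from 0.0504 up to 0.057), and without Sept2C111A libraries 2 and 3 together (adjusted p 0.064). Slc16a6 (chromosome 11, 109450855 to 109473598), a member of the monocarboxylate transporter family, measured 5.91, 5.60, 5.85 and 6.78 CPM and 8.94, 7.79, 7.78 and 11.6 CPM, library 4 being the highest. It rose from a mean of 6.03 ± 0.514 to one of 9.02 ± 1.79 CPM (log2 fold change 0.58 with SE 0.14 and adjusted p = 0.035), a call lost on removal of any wild-type library or of Sept2C111A 1 (adjusted p from 0.053 up to 0.11). Slc38a10, which had the highest read count of this group, measured 144 ± 6.22 and 140.2 ± 3.71 CPM (log2 fold change -0.04, 95% interval -0.16 to 0.09). Slc12a9 did not overlap between genotypes (27.8 ± 1.18 and 33.5 ± 4.14 CPM, adjusted p = 0.096). The other 10 genes, Slc35a4, Slc45a4, Slc10a3, Slc66a2, Slc35a5, Slc10a7, Slc16a13, Slc22a18, Slc22a17 and Slc16a9, had log2 fold changes from -0.18 to 0.46 and were not called.

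No gene was called by edgeR in the 7 remaining classes. An unadjusted p under 0.05 was found for 3 of 7 vitamin transporters, 2 of 3 carboxylate transporters and 1 of 3 osmolyte and creatine transporters. It was also found for 1 of 3 oligopeptide transporters, 1 of 6 nucleoside transporters and 0 of 8 in the other classes. Over all tested genes the share was 24.8%. In the 7 classes, Slc6a8 was called by DESeq2 and Slc23a2 by limma voom. Slc23a2, an ascorbate transporter, measured 103, 117, 98.1 and 95.9 CPM in wild-type and 85.3, 70.3, 59.9 and 100.3 CPM in Sept2C111A libraries. Sept2C111A library 4 lay inside the wild-type range and the other 3 below it (log2 fold change -0.39, 95% interval -0.69 to -0.08). Slc49a4 and the folate carrier Slc19a1 did not overlap between genotypes, at 35.8 ± 2.44 and 30.7 ± 1.38 CPM and 11.4 ± 0.535 and 10.5 ± 0.314 CPM. The thiamine, folate, riboflavin and biotin transporters Slc19a2, Slc46a1, Slc52a2 and Slc5a6 had log2 fold changes of -0.23, 0.26, -0.07 and 0.36. Slc13a5, the citrate importer of the plasma membrane, measured 21.7, 19.3, 27.9 and 26.1 CPM and 18.2, 19.1, 17.3 and 22.7 CPM. The lactate transporter Slc16a1 measured 8.93 ± 0.464 and 7.23 ± 1.14 CPM with no overlap, and Slc16a7 13.5 ± 0.895 and 15.5 ± 1.78 CPM with an overlap, neither called. Slc6a6, the taurine transporter, measured 591 ± 33.1 and 571 ± 52.8 CPM (log2 fold change -0.05, 95% interval -0.22 to 0.12), and Slc6a8, the creatine transporter, 103, 92.5, 97.0 and 94.4 CPM and 107, 109, 114 and 116 CPM with no overlap (adjusted p = 0.064). Slc5a3, the inositol importer, had a log2 fold change of 0.03.

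Slc15a3 and Slc15a4, endolysosomal transporters of histidine and peptides, the second needed for signalling by endosomal Toll-like receptors, measured 559.8 ± 18.2 and 601 ± 34.2 CPM and 62.7 ± 1.92 and 69.6 ± 1.60 CPM. The values of Slc15a4 were 59.8, 63.4, 64.1 and 63.3 CPM in wild-type and 67.2, 70.5, 70.4 and 70.3 CPM in Sept2C111A libraries, which did not overlap, and its adjusted p was 0.12 (log2 fold change 0.15, 95% interval 0.03 to 0.27). Slc15a2 had -0.30. Among nucleoside transporters, Slc29a1, the equilibrative transporter of the plasma membrane, measured 97.6 ± 3.95 and 92.9 ± 3.03 CPM (log2 fold change -0.07, 95% interval -0.20 to 0.05). Slc29a3, the lysosomal one, measured 43.3, 49.0, 42.3 and 43.8 CPM and 49.95, 50.4, 41.0 and 65.3 CPM, with Sept2C111A library 3 lowest and library 4 highest of all 8. Slc28a2, Slc29a2, Slc43a3 and Slc17a9 had log2 fold changes of 0.21, -0.19, -0.22 and 0.11. In the secretory pathway, the nucleotide sugar transporters Slc35a1, Slc35a2 and Slc35a3 and the acetyl-CoA transporter Slc33a1 stayed between -0.06 and 0.09. The sialic acid exporter of lysosomes Slc17a5 and the carnitine transporter family Slc22a4, Slc22a5 and Slc22a21 lay between -0.28 and 0.15; the Slc22 genes are close relatives among which the counting model may have divided shared reads.

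**Figure D4:**
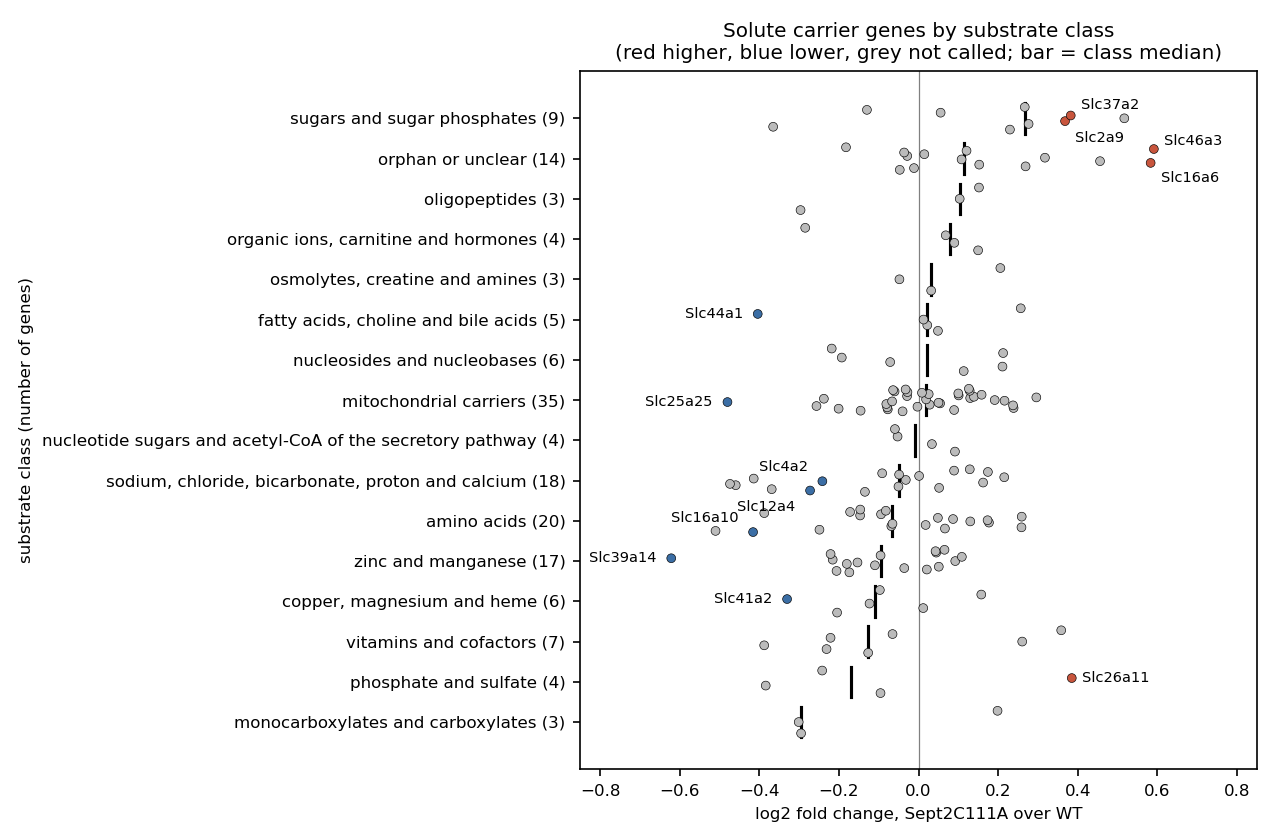
Log2 fold change (horizontal axis, Sept2C111A over wild type) of the 158 transporter genes by substrate class (vertical axis, number of genes in brackets), with the class median as a bar; red genes were called higher, blue lower, grey not called. All points lie between -0.62 and 0.59, and the 12 called genes are spread over 9 of the 16 classes.

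Transporter levels varied more among Sept2C111A than among wild-type libraries. The median coefficient of variation over the 158 genes was 6.42% in wild-type and 9.56% in Sept2C111A libraries, and it was larger in Sept2C111A for 110 genes, or 69.6%, where 79.1% of all tested genes had the larger one there. Sept2C111A library 3 held the lowest value of its genotype for 66 transporters, or 41.8%, against 33.3% of all tested genes. Library 4 held the highest for 66, or 41.8%, against 33.9%. For 43 transporters library 3 was lowest and library 4 highest, and for 23 the reverse held. The first pattern included Slc26a2, Slc7a5, Slc39a10 (17.5, 13.5, 12.2 and 24.0 CPM in Sept2C111A libraries), Slc19a2 (12.6, 10.5, 8.39 and 16.7 CPM) and Slc25a30 (3.03, 1.96, 1.17 and 4.59 CPM). The reverse included the mitochondrial carriers Slc25a39 (193, 209, 253 and 171 CPM), Slc25a1 (91.8, 105, 108 and 77.9 CPM) and Slc25a3. In wild-type libraries 1 to 4 Slc39a10 measured 20.4, 20.7, 17.0 and 16.8 CPM and Slc25a39 183, 172, 188 and 197 CPM.

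**Figure D5:**
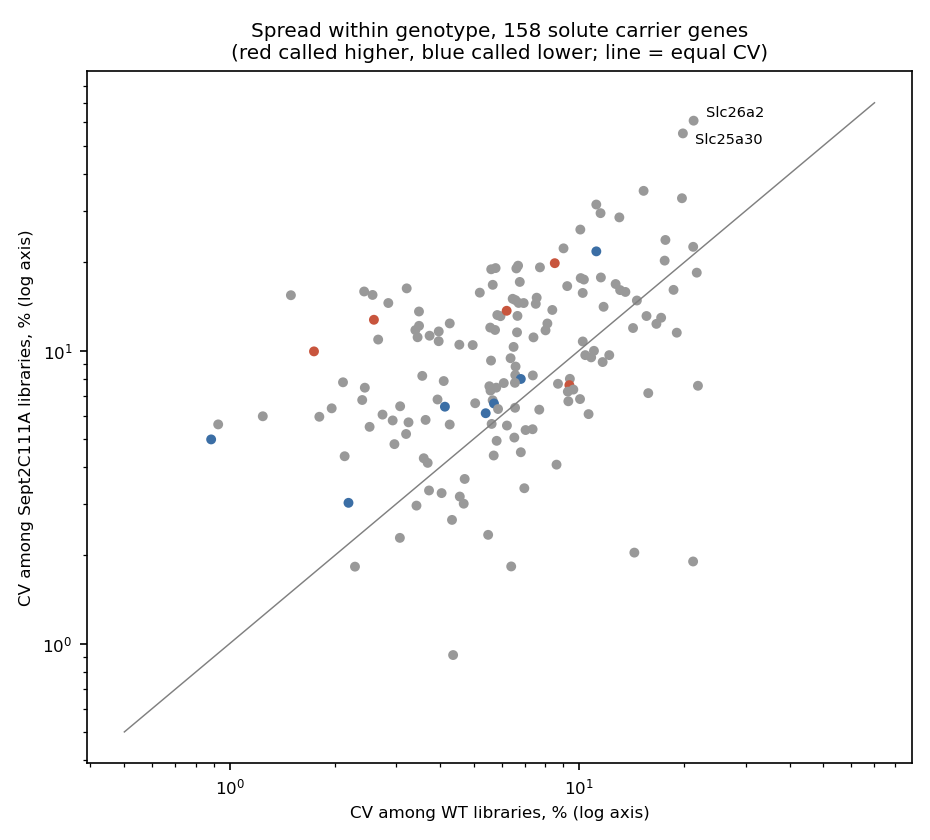
Coefficient of variation of CPM among the 4 wild-type libraries (horizontal log axis, %) and the 4 Sept2C111A libraries (vertical log axis, %) for each of the 158 transporter genes, with the line of equal values; called genes are coloured. Most points, 110 of 158, lie above the line, and Slc26a2 and Slc25a30 have the largest spread among Sept2C111A libraries.

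Genes that work beside the transporters were counted in the same fit, with edgeR calls throughout, of which all tested genes gave 6.46%. Of 41 tested transporters outside the symbol pattern, such as the Slco, Mfsd and Slc35b to Slc35g genes, 1 rose and 0 fell: Flvcr1, a heme and choline transporter, rose from a mean of 19.8 ± 1.81 to one of 25.5 ± 1.83 CPM, a call lost on removal of wild-type 1, 3 or 4 or of Sept2C111A 2 (adjusted p from 0.069 up to 0.11). Of 14 accessory subunits and regulators, Arrdc3, an arrestin-like adaptor in the removal of membrane proteins, rose from a mean of 7.93 ± 0.984 to one of 13.5 ± 2.15 CPM, and Emb, a chaperone subunit of monocarboxylate transporters, fell from a mean of 46.7 ± 3.28 to one of 38.6 ± 1.91 CPM. The call of Emb was lost on removal of any wild-type library or of Sept2C111A 1 or 2 (adjusted p from 0.058 up to 0.16). Of 5 genes of zinc buffering and sensing, edgeR called 0, and 0 had an unadjusted p under 0.05. DESeq2 and limma voom likewise called 0 of the 5. The metallothionein Mt1, with the highest read count of them, measured 204, 164, 209 and 209 CPM in wild-type and 199, 210.2, 269.8 and 154 CPM in Sept2C111A libraries. Among 21 genes of amino acid and glutamine use, 2 fell: Il4i1, a secreted amino acid oxidase, from a mean of 13.9 ± 1.60 to one of 4.38 ± 1.36 CPM, and Phgdh, the first enzyme of serine synthesis, from a mean of 49.6 ± 5.70 to one of 37.6 ± 4.15 CPM. The Phgdh call ended on removal of wild-type 1, 3 or 4 or of Sept2C111A 2 (adjusted p from 0.11 up to 0.14). Of 24 genes of amino acid sensing and stress, 1 rose, Ddit3, a transcription factor of the integrated stress response, from a mean of 22.2 ± 1.85 to one of 43.4 ± 11.2 CPM. Among 13 genes of nucleoside use, Entpd1, an enzyme that breaks down extracellular ATP, rose from a mean of 84.8 ± 4.77 to one of 129 ± 15.3 CPM, Dck, a nucleoside kinase, rose from a mean of 35.5 ± 3.82 to one of 47.8 ± 2.00 CPM, and Uck2, a uridine and cytidine kinase, fell from a mean of 23.5 ± 3.08 to one of 16.8 ± 2.64 CPM. The median log2 fold changes were 0.04 for these other transporters, -0.01 for accessory subunits, -0.01 for zinc buffering, -0.12 for amino acid use, 0.04 for sensing and stress and -0.0017 for nucleoside use, beside 0.01 over all tested genes. The call of Dck was lost on removal of wild-type 3 (adjusted p 0.054) and that of Uck2 on removal of wild-type 1, 3 or 4 or of Sept2C111A 2 or 3 (adjusted p from 0.071 up to 0.14). Flvcr1, Emb, Phgdh and Uck2 were also not called without Sept2C111A libraries 2 and 3 together, nor Emb with no filter on low counts.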

How the data were processed

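RNA from 8 libraries of mouse bone-marrow-derived macrophages was sequenced, 4 wild-type and 4 Sept2C111A, grouped by the sample labels. For each gene symbol the authors deposited an expected count, not normalized. RSEM 1.3.1, Bowtie2, DESeq2 1.4.5 and mm10 are listed per the submitters' processing notes. Which annotation and strand setting served was not given in the sources used, so reads of antisense and near-identical genes may be shared.

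Expected counts were rounded, and 12462 genes passed filterByExpr (minimum count 10). The genotypes were compared with the two-sided quasi-likelihood test of edgeR 4.0.16 (R 4.3.3) on TMM-normalized counts, with genotype as the only term. P-values were adjusted by Benjamini-Hochberg over all tested genes, with calls made below an adjusted p of 0.05. A log2 fold change is Sept2C111A over wild type, and its SE is its size divided by the square root of F. CPM values use normalized library sizes, except in the 2 CPM rule, which uses column totals. A gene with no read lies under 0.141 to 0.154 CPM, the level of 3 counts, which covers counting error only. Levels per kilobase use principal transcripts of GENCODE M21. All 158 symbols matched RefSeq, which gave coordinates.

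The transporters, their classes, the marker and partner lists and the rule for named genes were chosen with earlier results of these data known. That rule took every called transporter, the one of each class with the highest mean CPM, the 3 on each side of the threshold, the 3 largest uncalled changes and up to 3 called genes of each partner list, or its gene with the highest mean CPM where none was called. The 3 below the threshold were given by level only, without tests of settings or outlying libraries. Further genes were named after their values were seen. Alternatives used DESeq2 1.42.0, limma 3.58.1 (voom with sample weights), other normalizations, filters and thresholds, a replicate block and each library left out. Counts of 12392 genes were also simulated, with a coefficient of variation of 0.1 in both genotypes. On them edgeR recovered 93.9% of 99 genes changed by 1 on the log2 scale and 73.0% of 100 changed by 0.5, with 13 false calls. The real libraries had 0.061 in wild type and 0.147 in Sept2C111A, so these rates need not hold for them. Single values of a few genes are not reported here.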

Additional observations from a re-analysis of the deposited data

Results flagged for a closer look

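In 4 of 86 groups of 4 libraries examined for the named genes, 1 library lay so far from the other 3 that the gap, as a share of the whole range, exceeded Dixon's limit for 4 values. Chance alone gives such a gap in about 1 in 20 groups. Slc46a3, the lysosomal transporter gene called higher, measured 10.2 CPM in Sept2C111A library 1 and 13.8, 13.8 and 13.3 CPM in libraries 2, 3 and 4. Slc9a9, a proton exchanger gene, measured 188 CPM in Sept2C111A library 4 and 149.7, 153 and 149.9 CPM in libraries 1, 2 and 3. Slc27a3, a fatty acid transport gene near the threshold of the list, measured 1.58 CPM in Sept2C111A library 3 and 2.22, 2.28 and 2.22 CPM in libraries 1, 2 and 4. Mt1, the metallothionein, measured 164 CPM in wild-type library 2 and 204, 209 and 209 CPM in wild-type libraries 1, 3 and 4.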

How the results depend on the processing

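Of the 12 called transporters, only Slc25a25, Slc44a1 and Slc16a10 kept their call in every one of the 16 alternative fits. All tested genes gave 805 calls with edgeR, 1428 with DESeq2, 1343 with limma voom, 494 with a replicate block, 492 without Sept2C111A libraries 2 and 3 together, 220 at an adjusted p under 0.01, and 266 to 2077 when 1 library was left out. Transporters called higher numbered 5, against 9 with DESeq2, 2 without Sept2C111A libraries 2 and 3 together, 0 at an adjusted p under 0.01, and 0 to 11 with 1 library left out. Those called lower numbered 7, against 14 with DESeq2, 12 with limma voom, 3 at an adjusted p under 0.01, and 3 to 19 with 1 library left out. The log2 fold change of Septin2, -0.27 with an adjusted p of 0.063, passed the threshold with DESeq2 (-0.27, adjusted p 0.020), with limma voom (-0.26, adjusted p 0.018) and without Sept2C111A libraries 2 and 3 together (-0.37, adjusted p 0.016). Leaving out 1 library gave -0.31 to -0.20 for it, and the threshold was passed only without Sept2C111A library 3 (-0.31, adjusted p 0.029). The exact two-sided permutation test of Septin2 gave p = 0.0286, the smallest that 4 libraries against 4 allow. Small log2 fold changes of uncalled genes changed sign: without Sept2C111A libraries 2 and 3 together, Slc35a3 came to 0.048, Slc6a6 to 0.047 and Mt1 to -0.15. With 1 library left out, Slc6a6 ran from -0.095 to 0.0071, Slc27a3 from -0.039 to 0.13 and Mt1 from -0.061 to 0.21. The cause was not tested. The labels do not say whether equal replicate numbers mark paired libraries. Correlations of same-numbered libraries' deviations were 0.137, 0.0956, -0.0230 and -0.237. Those of differently numbered libraries ran from -0.218 to 0.251, so the correlations cannot decide whether libraries were paired. With the replicate numbers as a block, 9 transporters were called, 4 higher and 5 lower, and Slc12a4, Slc2a9 and Slc4a2 lost their calls. Of the marker and partner genes, Col1a1, Col5a2, Pecam1, Flvcr1 and Emb lost theirs. No setting of normalization or filter changed the number of transporters called by more than 2. Fewer libraries leave fewer degrees of freedom.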
